A study of Mus musculus with 6 samples.

Results

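The enteric neuron and glia genes are 32 genes picked by name: transcription factors, receptors, structural and synaptic proteins, transmitter enzymes and peptides of enteric neurons, and markers of enteric glia and neural crest. Every gene of the list was found once, by its symbol, among the 54532 genes of the deposited table. The rule that picks the genes uses names alone, but the list was drawn up with earlier results of these data known. Of the 32 genes, 9 reached 0.5 FPKM (reads per gene corrected for gene length and depth) in the mean over the 6 tumors and were tested between the groups. The other 23 were under this level and are described by their counts.

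RNA was measured in 3 tumor samples of Tmem173fl/fl and 3 of Tmem173iΔmye mice, from the colon, with polyA RNA-seq of whole tumor tissue. Tmem173fl/fl mice carry loxP sites around Tmem173, which encodes STING, and have no Cre. Tmem173iΔmye mice carry the same floxed alleles and Lyz2-CreERT2, a tamoxifen (TAM) inducible Cre under a promoter active in macrophages, monocytes and neutrophils, so that deletion is meant for myeloid cells and not for neurons, glia or epithelium. Mice of both groups received azoxymethane (AOM), a carcinogen, and 3 cycles of dextran sulfate sodium (DSS), and both groups received TAM after these cycles, once tumors had formed (AOM+DSS-L). The age at sampling was not given in the sources used here. The replicate numbers come from the sample titles.

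The enteric nervous system is built from neural crest cells that enter the gut wall and form ganglia of neurons and glia in a myenteric and a submucosal plexus. RET signaling with its GFRA co-receptors and signaling through the endothelin receptor EDNRB guide the migration and survival of these cells, and the mature neurons relax or contract gut muscle through transmitters such as VIP, nitric oxide, acetylcholine and substance P. Some of these genes are known from other cells as well: UCHL1, SYT1 and SNAP25 from endocrine cells, NGFR from follicular dendritic cells, EDNRB from vessels and other stroma, and RET and L1CAM from some leukocytes and tumor cells. In whole tumors, fewer cells of a type and less RNA per cell cannot be told apart.

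The starts of 4 genes on which the comparison below turns are shown as RefSeq gives them for GRCm38.p6, from 250 bases before to 50 bases after the gene start. Vip and Tubb3 had the lowest and the highest fold change of the 9 tested genes. Syt1 and Phox2a passed the fold and p threshold of the study when genes under the level filter were fitted too. Capitals mark the matches, on either strand, of 4 motifs that were searched for. The core promoter element was searched as TATAAA and an E-box, which basic helix-loop-helix factors such as HAND2 bind, as CAGCTG. The cAMP response element was searched as TGACGTCA. The RE1 element, bound by the neuronal gene repressor REST, was searched by its stretch GGACAGC.
Vip, chr10:5638968-5639267, plus strand: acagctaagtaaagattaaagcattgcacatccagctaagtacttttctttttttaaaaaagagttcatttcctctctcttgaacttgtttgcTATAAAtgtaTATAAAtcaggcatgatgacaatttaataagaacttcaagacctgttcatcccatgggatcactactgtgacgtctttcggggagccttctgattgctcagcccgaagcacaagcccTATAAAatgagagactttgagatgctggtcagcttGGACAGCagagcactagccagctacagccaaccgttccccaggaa
Tubb3, chr8:123411303-123411602, plus strand: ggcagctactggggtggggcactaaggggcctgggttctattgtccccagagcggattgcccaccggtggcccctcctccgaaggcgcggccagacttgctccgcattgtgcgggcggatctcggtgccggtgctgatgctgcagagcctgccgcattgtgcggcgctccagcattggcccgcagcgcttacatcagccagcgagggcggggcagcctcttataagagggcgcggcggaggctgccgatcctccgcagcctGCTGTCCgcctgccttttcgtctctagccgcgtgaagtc
Phox2a, chr7:101818063-101818362, plus strand: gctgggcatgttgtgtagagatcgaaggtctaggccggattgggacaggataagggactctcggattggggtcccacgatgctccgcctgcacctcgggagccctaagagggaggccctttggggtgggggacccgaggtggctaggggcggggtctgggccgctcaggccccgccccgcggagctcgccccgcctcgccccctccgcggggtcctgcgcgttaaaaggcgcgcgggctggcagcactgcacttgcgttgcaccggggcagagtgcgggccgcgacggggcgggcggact
Syt1, chr10:109010926-109011225, minus strand: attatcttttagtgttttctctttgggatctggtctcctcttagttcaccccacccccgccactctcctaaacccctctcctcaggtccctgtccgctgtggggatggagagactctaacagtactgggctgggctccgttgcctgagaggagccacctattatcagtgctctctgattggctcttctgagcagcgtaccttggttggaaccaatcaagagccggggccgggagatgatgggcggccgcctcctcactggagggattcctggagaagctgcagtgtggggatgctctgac

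The Vip start holds TATAAA at 3 places and GGACAGC once, the Tubb3 start holds GGACAGC on the opposite strand, and the Phox2a and Syt1 starts shown hold none of the 4 motifs. Syt1 has 2 RefSeq starts, of which the one nearer the GENCODE gene start is shown. The other holds CAGCTG. Of the 32 genes, 23 had a start in the RefSeq table, and Calb2, Ret, Cdh19, Snap25, Nefl, Sox10, Nefm, Gap43 and Stmn2 did not. The 23 genes had 28 starts, and a gene was counted if any of its starts held the motif. The shares over the table count single starts, so the 2 are not on the same footing. CAGCTG was found for 7 of the 23 (Chat, Elavl3, Elavl4, Gfra1, Ngfr, Scn7a and Syt1) and in 16.3% of all 32851 starts in the table. TATAAA was found for 3 (Elavl3, Prph and Vip) and in 13.6% of all starts. GGACAGC was found for 3 (Cartpt, Tubb3 and Vip) and in 6.56% of all starts. TGACGTCA was found for 3 (Cartpt, Foxd3 and Th) and in 1.79% of all starts. CAGCTG and TGACGTCA read the same on both strands, and GGACAGC can overlap CAGCTG by 4 bases. These matches describe letters and say nothing of binding.

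Most of the 32 genes were scarcely detected. Between 2014 and 2944 reads per tumor fell on all 32 together, or 0.0126% to 0.0192% of the reads counted on genes. Of the 32 genes, 16 had more than 3 counts in every tumor, and 10 never exceeded 10 counts. The counts of the 32 genes by tumor show Ret and L1cam far above the rest. The glial and neural crest genes other than Scn7a stayed at 10 counts or fewer.

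**Figure D1:**
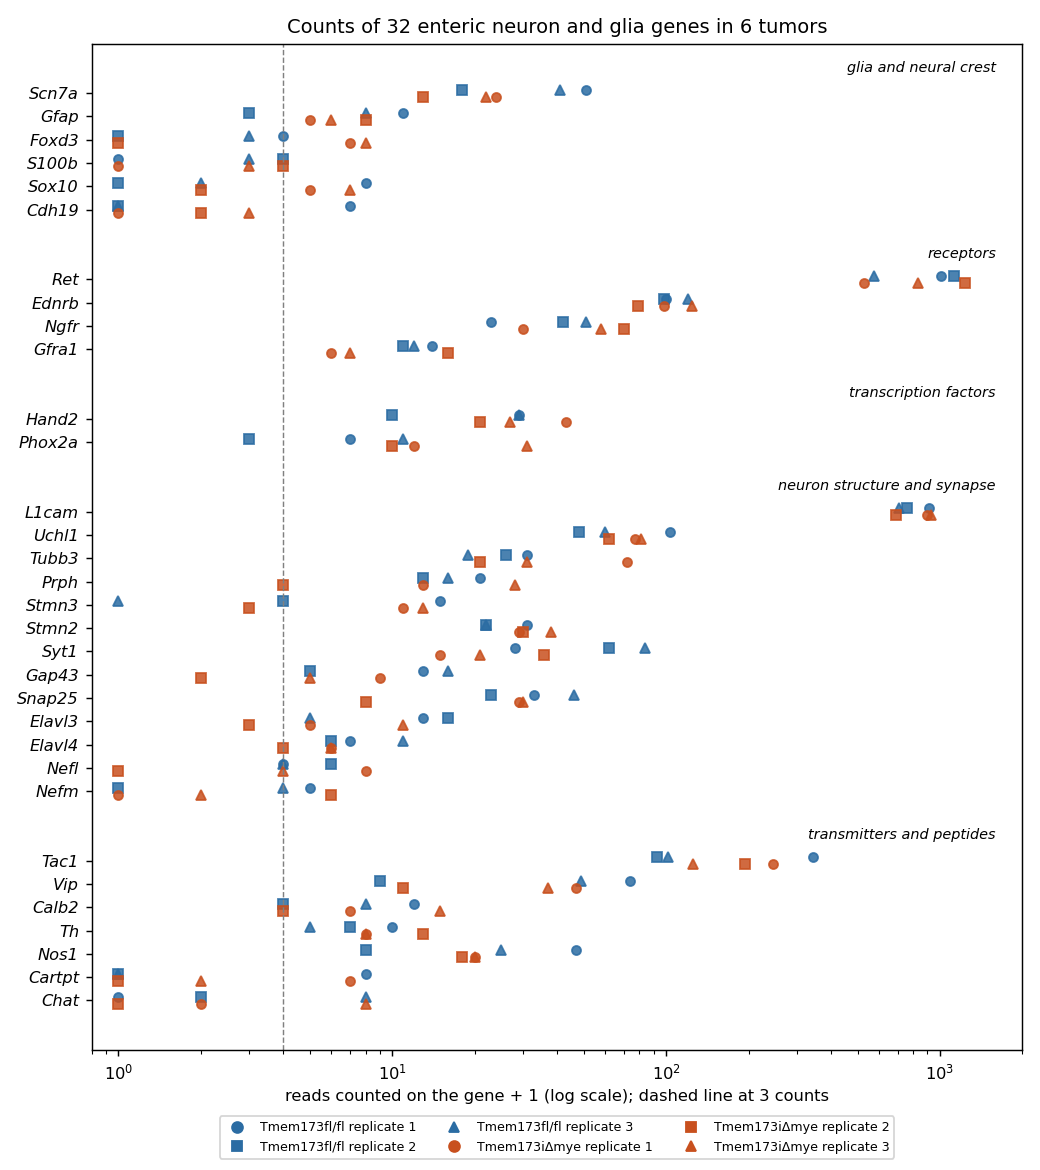
Reads counted on each of the 32 genes plus 1 (x axis, log scale) in the 3 Tmem173fl/fl (blue) and 3 Tmem173iΔmye (orange) tumors, with 1 point per tumor and genes grouped by role. Ret and L1cam lie between 525 and 1234 counts in every tumor, while Sox10, S100b, Cdh19 and Foxd3 stay at 7 counts or fewer, and blue and orange points mix in nearly every row.

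Levels between genes were compared per length, as mean FPKM over the 6 tumors. Ret came first at 8.29 FPKM, the 60.3rd percentile of the 16426 tested genes, followed by L1cam at 7.01, Tac1 at 3.40, Uchl1 at 2.74 and Ednrb at 1.51 FPKM. Tubb3 at 1.10, Ngfr at 0.816, Hand2 at 0.681 and Vip at 0.680 FPKM were near the lower end of the tested genes. Ret and L1cam overlapped in their FPKM over tumors, as did Hand2 and Vip, so neither pair can be ordered. By role, the median of the mean FPKM was 1.16 for the 4 receptors, 0.515 for the 2 transcription factors, 0.302 for the 13 genes of neuron structure and synapse, 0.201 for the 7 transmitter genes and 0.0762 for the 6 glial and neural crest genes. For comparison, the median of the mean FPKM was 310 for 9 colon epithelium genes and 8.52 for 12 smooth muscle genes.

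**Figure D2:**
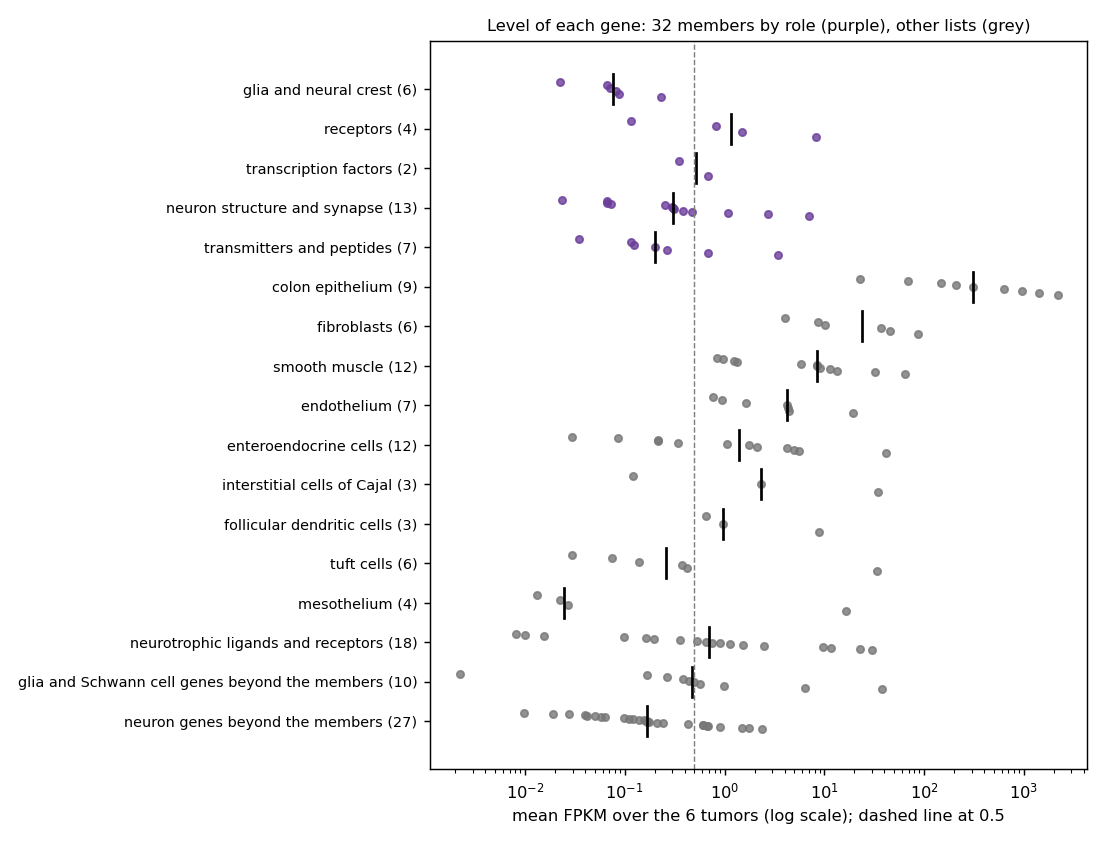
Mean FPKM over the 6 tumors (x axis, log scale) of the 32 genes by role (purple) and of 12 lists of other genes (grey), with 1 point per gene, the number of genes in parentheses, a black bar at the median and a dashed line at the filter of 0.5. Only 9 purple points lie at or right of the dashed line, and the 6 glial and neural crest genes all lie left of it.

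Between the genotypes, 0 of the 9 tested genes passed a test, which does not show that their levels were equal. In the quasi-likelihood test of edgeR, adjusted by Benjamini-Hochberg, 0 of 16426 tested genes (0%) reached an adjusted p under 0.05, and the lowest adjusted value was 0.742. Unadjusted, 1008 genes were under 0.05. At the threshold of the study, a log2 fold change of 1 or more in either direction with an unadjusted p of 0.05 or less, 349 genes or 2.12% of those tested passed, 207 higher and 142 lower in Tmem173iΔmye tumors. None of the 9 neuron and glia genes passed it, and none had an unadjusted p-value under 0.05. Nor did the groups separate in any of the 9, as CPM (counts scaled to a library size normalized by TMM), against 12.5% of all tested genes whose groups did not overlap. The log2 fold changes, here and below Tmem173iΔmye over Tmem173fl/fl, had a median of 0.046 over the 9 genes and of -0.0042 over all tested genes. They were above 0 for 6 of the 9 genes and for 49.4% of all tested genes.

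**Figure D3:**
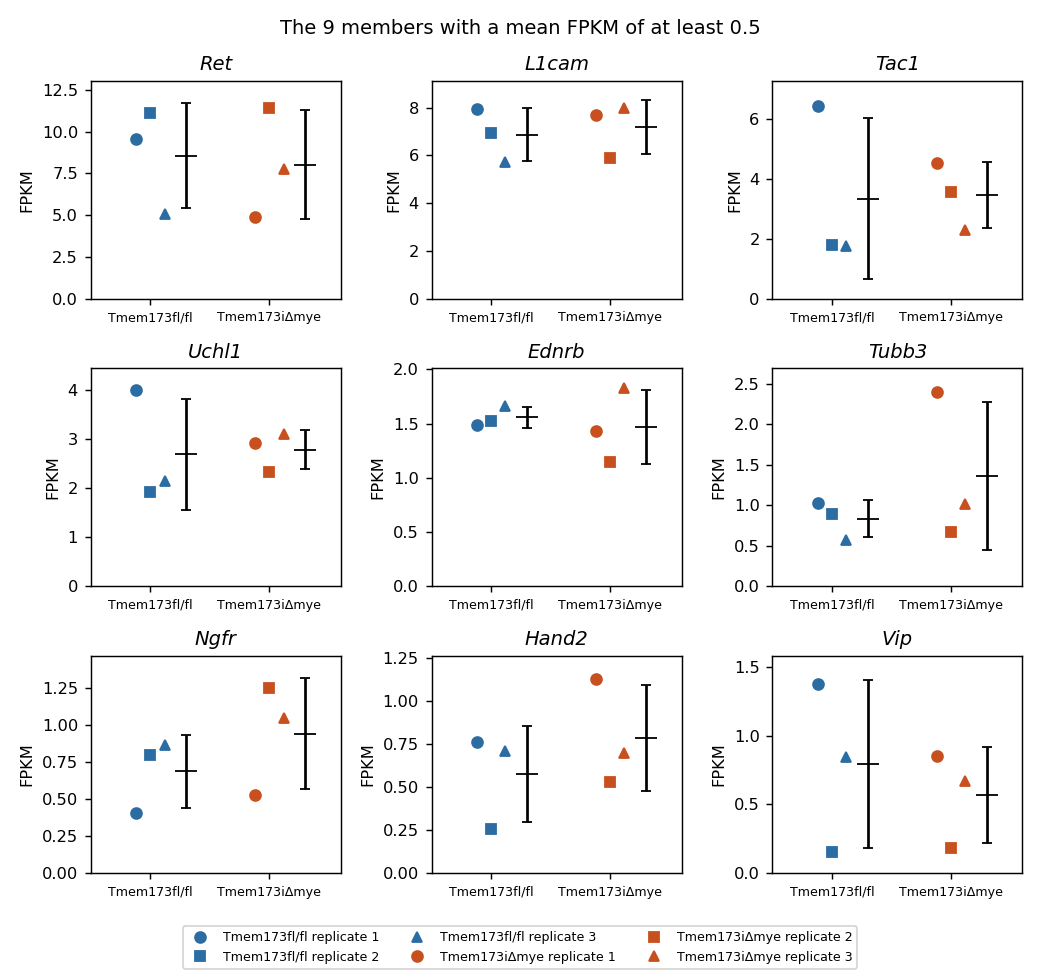
FPKM (y axis, linear from 0) of the 9 tested genes in each tumor, with the mean and SD of each group beside the points (n = 3 per group). In each of the 9 panels, the ranges of the Tmem173fl/fl and Tmem173iΔmye tumors overlap.

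Among the receptors, Ret encodes the tyrosine kinase that binds GDNF family ligands together with GFRA co-receptors. It lies on the minus strand at chr6:118151745-118197718. Its counts, given here and below in the order of replicates 1, 2 and 3, were 1010, 1124 and 572 in Tmem173fl/fl and 525, 1234 and 828 in Tmem173iΔmye tumors. Each group thus held a tumor near the low end and a tumor near the high end, with a 2.35-fold range over the 6 tumors as CPM. Mean Ret was 8.57 ± 3.15 FPKM (SD, n = 3) in Tmem173fl/fl and 8.01 ± 3.27 FPKM (SD, n = 3) in Tmem173iΔmye tumors. The log2 fold change was -0.10 (SE 0.36, edgeR adjusted p = 0.953), and it was above 0 without Tmem173fl/fl replicate 2 or Tmem173iΔmye replicate 1.

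Gfra1, the co-receptor through which GDNF reaches RET, was low, at 13, 10 and 11 counts in Tmem173fl/fl and 5, 15 and 6 counts in Tmem173iΔmye tumors. Its counts did not follow those of Ret tumor by tumor in the Tmem173fl/fl group, where Ret varied and Gfra1 stayed between 10 and 13. In the Tmem173iΔmye group, both genes had the same order, highest in replicate 2 and lowest in replicate 1. Gfra1 shares 416 exon bases with an antisense gene, Gm16277. Of the GDNF family ligands, Gdnf had between 3 and 15 counts per tumor. Nrtn, which encodes neurturin, had a mean of 11.7 FPKM with a log2 fold change of 0.27 (SE 0.23).

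Ednrb, the endothelin receptor that neural crest cells need to colonize the hindgut, was the steadiest of the tested receptors. Its counts were 99, 97 and 119 in Tmem173fl/fl and 97, 78 and 123 in Tmem173iΔmye tumors. The second group enclosed the whole range of the first. Between the groups, the log2 fold change was -0.09 (SE 0.25, edgeR adjusted p = 0.940). Edn3, the ligand of EDNRB, had 141, 89 and 119 counts in Tmem173fl/fl and 83, 73 and 94 counts in Tmem173iΔmye tumors, a log2 fold change of -0.49 (SE 0.26, edgeR adjusted p = 0.742).

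Ngfr encodes the low-affinity neurotrophin receptor p75, found on enteric glia and crest-derived precursors. It had 22, 41 and 50 counts in Tmem173fl/fl and 29, 69 and 57 counts in Tmem173iΔmye tumors. Replicates 2 and 3 of Tmem173iΔmye exceeded all Tmem173fl/fl tumors, but replicate 1 lay below 2 of them. This came to a log2 fold change of 0.45 (SE 0.44, edgeR adjusted p = 0.807). Cr2, a marker of follicular dendritic cells and B cells, had 284, 53 and 2 counts in Tmem173fl/fl and 3, 136 and 19 counts in Tmem173iΔmye tumors, and its part in the level of Ngfr was not tested.

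Hand2 and Phox2a encode transcription factors that enteric neurons need to form and to take on their transmitters. Hand2 had 28, 9 and 28 counts in Tmem173fl/fl and 42, 20 and 26 counts in Tmem173iΔmye tumors. Only Tmem173fl/fl replicate 2 fell below all Tmem173iΔmye tumors. Its log2 fold change was 0.44 (SE 0.51, edgeR adjusted p = 0.837), and 461 of its exon bases are shared with Hand2os1 on the opposite strand.

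Phox2a was under the level filter, with 6, 2 and 10 counts in Tmem173fl/fl and 11, 9 and 30 counts in Tmem173iΔmye tumors. The highest count, in Tmem173iΔmye replicate 3, was well above all others, and Tmem173fl/fl replicate 3 lay above Tmem173iΔmye replicate 2, so the groups overlapped. Fitted without the filter, its log2 fold change was 1.48 (SE 0.68, unadjusted p = 0.044, edgeR adjusted p = 0.767), past the threshold of the study. Without Tmem173iΔmye replicate 3 it was 0.74 with an unadjusted p of 0.351. It also lost the threshold without Tmem173fl/fl replicate 1 (unadjusted p = 0.060) or replicate 2 (unadjusted p = 0.130). Phox2a lies on the plus strand at chr7:101818313-101822726 and shares 95 exon bases with Inppl1 on the other strand. Inppl1 had 1277 to 1430 counts in Tmem173fl/fl and 1584 to 1709 counts in Tmem173iΔmye tumors, and its part in the counts of Phox2a was not tested.

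The 13 genes of neuron structure and synapse included the steadiest gene tested. L1cam encodes a cell adhesion molecule of growing axons. It had 910, 760 and 705 counts in Tmem173fl/fl and 896, 690 and 924 counts in Tmem173iΔmye tumors. The values of the groups interleaved within a 1.40-fold range as CPM, and the log2 fold change was 0.06 (SE 0.18, edgeR adjusted p = 0.939). L1cam shares 100 exon bases with Arhgap4 on the same strand.

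Uchl1, whose product is the deubiquitinase PGP9.5 used to stain enteric neurons, had 102, 47 and 59 counts in Tmem173fl/fl and 76, 61 and 80 counts in Tmem173iΔmye tumors. Tmem173fl/fl tumors held both the highest and the lowest value. Uchl1 had a log2 fold change of 0.05 (SE 0.35, edgeR adjusted p = 0.978), and it shares 295 exon bases with its antisense gene Uchl1os.

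Tubb3, the neuronal beta-tubulin, had 30, 25 and 18 counts in Tmem173fl/fl and 71, 20 and 30 counts in Tmem173iΔmye tumors. A single tumor, Tmem173iΔmye replicate 1, stood above the rest, and the other 2 of its group lay within the range of Tmem173fl/fl tumors. Tubb3 had the largest log2 fold change of the 9 genes, 0.70 (SE 0.53, edgeR adjusted p = 0.765), and its unadjusted p of 0.220 was the lowest among them. Without Tmem173iΔmye replicate 1 the log2 fold change was 0.02.

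Syt1, the calcium sensor of synaptic vesicle release, was under the level filter. It lies on the minus strand at chr10:108497650-109010982. It had 27, 61 and 83 counts in Tmem173fl/fl and 14, 35 and 20 counts in Tmem173iΔmye tumors. The Tmem173fl/fl tumors were higher except replicate 1, which lay between Tmem173iΔmye replicates 2 and 3. Mean Syt1 was 0.430 ± 0.200 FPKM (SD, n = 3) in Tmem173fl/fl and 0.173 ± 0.081 FPKM (SD, n = 3) in Tmem173iΔmye tumors. Without the filter, its log2 fold change was -1.29 (SE 0.48, unadjusted p = 0.015, edgeR adjusted p = 0.754), past the threshold of the study. The log2 fold change kept its sign without each tumor in turn, from -1.72 to -0.99, but Syt1 lost the threshold without Tmem173fl/fl replicate 3 (unadjusted p = 0.084), Tmem173iΔmye replicate 1 (unadjusted p = 0.061) or replicate 3 (unadjusted p = 0.057).

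Fitted with all 30939 genes that had a count, Syt1 and Phox2a were the only neuron and glia genes past the threshold, 2 of 32 or 6.25%, in opposite directions, against 2.82% of all genes in that fit. In that fit 6 genes had an adjusted p-value under 0.05, and 0 of the 32 were among them. The log2 fold change was above 0 for 14 of the 32 genes and below 0 for 18, and the median was -0.04, beside -0.01 over all genes with a count.

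**Figure D4:**
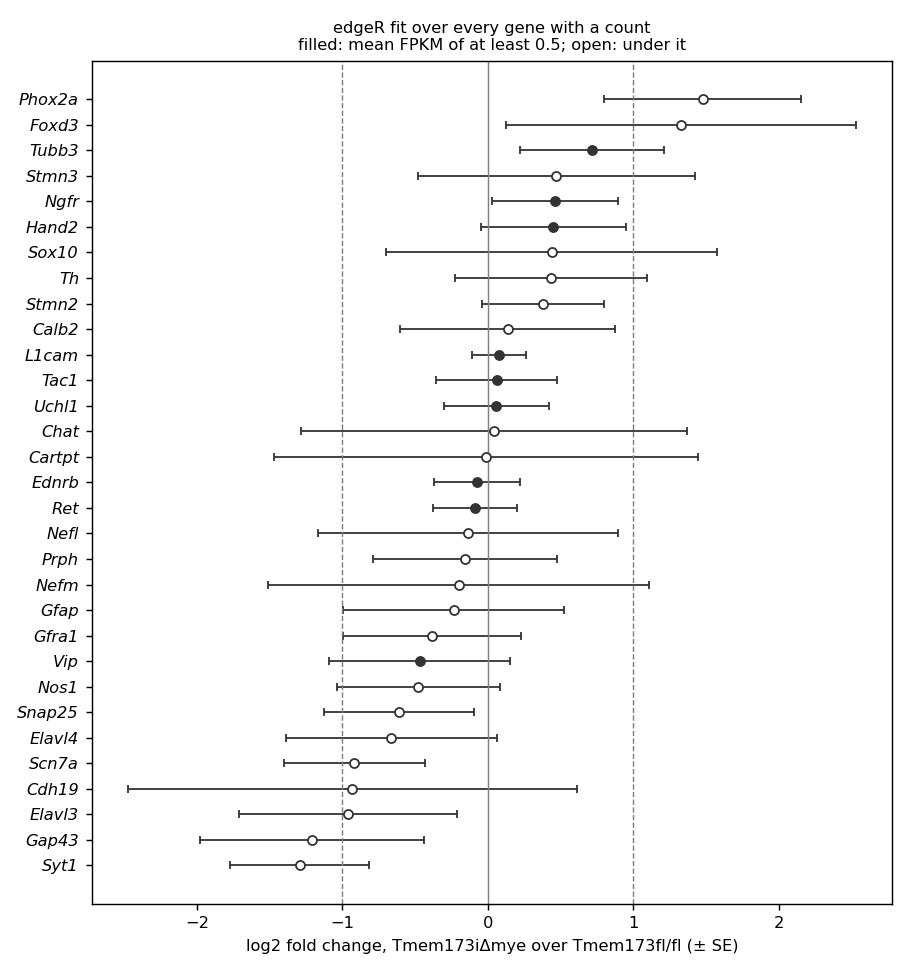
Log2 fold change, Tmem173iΔmye over Tmem173fl/fl (x axis), with its SE as bars, from the edgeR fit over every gene with a count, for the neuron and glia genes with more than 3 counts in at least 1 tumor. Filled points are the 9 genes that reached the filter of 0.5 FPKM and open points the genes under it. Phox2a lies highest at 1.48 and Syt1 lowest at -1.29, and bars are widest for the genes with the fewest counts.

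Of the other structural and synaptic genes under the filter, 4 had a maximum above 10 counts and more than 3 counts in at least 5 tumors, besides Elavl3. Stmn2, a regulator of axonal microtubules, had 21 to 30 counts in Tmem173fl/fl and 28 to 37 counts in Tmem173iΔmye tumors, a log2 fold change of 0.38 (SE 0.42) without the filter. Snap25, a component of the vesicle fusion complex, had 32, 22 and 45 counts in Tmem173fl/fl and 28, 7 and 29 counts in Tmem173iΔmye tumors, a log2 fold change of -0.61 (SE 0.52). The low value of Snap25 came from 1 tumor, Tmem173iΔmye replicate 2. Prph, the intermediate filament peripherin, was just under the filter at a mean of 0.469 FPKM, with 12 to 20 counts in Tmem173fl/fl and 3 to 27 counts in Tmem173iΔmye tumors. Gap43, a growth cone protein, had 12, 4 and 15 counts in Tmem173fl/fl and 8, 1 and 4 counts in Tmem173iΔmye tumors, a log2 fold change of -1.21 (SE 0.77) with an unadjusted p of 0.137.

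The remaining 5 structural genes were sparse. Elavl3 and Elavl4 encode the neuronal RNA-binding proteins HuC and HuD. Elavl3 had 4 to 15 counts in Tmem173fl/fl and 2 to 10 counts in Tmem173iΔmye tumors. Elavl4 had 6, 5 and 10 counts in Tmem173fl/fl and 5, 3 and 5 counts in Tmem173iΔmye tumors. It was the only one of the 32 genes whose groups did not overlap as CPM, 3.13% of the 32 against 9.7% of all genes with a count, and its log2 fold change was -0.66 (SE 0.73, edgeR adjusted p = 0.769). Stmn3, a relative of Stmn2, ranged from 0 to 14 counts. The neurofilament genes Nefl and Nefm did not exceed 7 and 5 counts. They share 1108 exon bases on opposite strands, and reads on these bases cannot be told apart without knowledge of the strand setting of the counting.

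Tac1 led the transmitter genes. It encodes the precursor of substance P and neurokinin A, which contract gut muscle. It had 342, 92 and 101 counts in Tmem173fl/fl and 244, 194 and 124 counts in Tmem173iΔmye tumors. The highest and the lowest values both came from Tmem173fl/fl tumors, in a 3.67-fold range as CPM, and the 3 Tmem173iΔmye tumors lay between them. Mean Tac1 was 3.34 ± 2.69 FPKM (SD, n = 3) in Tmem173fl/fl and 3.47 ± 1.11 FPKM (SD, n = 3) in Tmem173iΔmye tumors. Tac1 had a log2 fold change of 0.05 (SE 0.53, edgeR adjusted p = 0.985). Leaving out Tmem173fl/fl replicate 1 moved it to 0.96, and leaving out replicate 3 moved it to -0.26. The part of cells other than neurons in the level of Tac1 was not tested.

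Vip, the relaxing peptide of inhibitory motor and secretomotor neurons, had the widest spread of the tested genes, 8.90-fold as CPM. Its counts were 73, 8 and 48 in Tmem173fl/fl and 46, 10 and 36 in Tmem173iΔmye tumors. Each group held 1 tumor at 10 counts or fewer, replicate 2 in both. Vip had a log2 fold change of -0.49 (SE 0.78, edgeR adjusted p = 0.884), and 0.17 without Tmem173fl/fl replicate 1.

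Nos1, the neuronal nitric oxide synthase that partners VIP in relaxing gut muscle, was under the filter with 46, 7 and 24 counts in Tmem173fl/fl and 19, 17 and 19 counts in Tmem173iΔmye tumors. Tmem173fl/fl tumors held the extremes, and the Tmem173iΔmye tumors were nearly equal. Its log2 fold change without the filter was -0.48 (SE 0.56), and it shares 268 exon bases with the antisense gene Gm26995. Th, the first enzyme of catecholamine synthesis, had 4 to 12 counts. Calb2, the calcium buffer calretinin, had 3 to 14 counts. Chat, the enzyme that makes acetylcholine, was at 0 or 1 count in 4 tumors and at 7 counts in replicate 3 of each group. Cartpt, the precursor of the CART peptide, was at 0 or 1 count in 4 tumors and at 7 and 6 counts in replicate 1 of each group.

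The 6 glial and neural crest genes were all under the filter. Scn7a, a sodium channel gene expressed in glia, had the most reads, with 50, 17 and 40 counts in Tmem173fl/fl and 23, 12 and 21 counts in Tmem173iΔmye tumors. Tmem173fl/fl replicates 1 and 3 were above all others and replicate 2 lay within the range of the Tmem173iΔmye tumors. Its log2 fold change without the filter was -0.92 (SE 0.49, unadjusted p = 0.076, edgeR adjusted p = 0.767), short of the threshold. Gfap, the glial filament, had 2 to 10 counts in Tmem173fl/fl and 4 to 7 counts in Tmem173iΔmye tumors. The defining glial genes were at or near 0. Sox10, the transcription factor of crest and glia, had 0 to 7 counts, S100b, the calcium-binding glial marker, had 0 to 3, Foxd3, a crest factor, had 0 to 7, and Cdh19, a cadherin of glia and Schwann cells, had 0 to 6. A difference between the groups was not detectable for these 4 genes at this depth.

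Tumor by tumor, no role separated the genotypes. Summed over the 4 receptors, CPM was 74.4, 84.8 and 45.1 in Tmem173fl/fl and 41.4, 88.0 and 64.6 in Tmem173iΔmye tumors. The 7 transmitter genes summed to 31.7, 7.80 and 11.5 CPM in Tmem173fl/fl and 20.8, 14.9 and 13.2 CPM in Tmem173iΔmye tumors. The sum was highest in replicate 1 of each group, and Tac1 made up most of it. The 6 glial and crest genes summed to 4.94, 1.47 and 3.12 CPM in Tmem173fl/fl and 2.34, 1.51 and 2.74 CPM in Tmem173iΔmye tumors, lowest in replicate 2 of each group. The 2 transcription factors summed to 2.21, 0.733 and 2.28 CPM in Tmem173fl/fl and 3.35, 1.83 and 3.57 CPM in Tmem173iΔmye tumors, and the 13 structural genes to 58.9 to 78.2 CPM in Tmem173fl/fl and 54.1 to 75.2 CPM in Tmem173iΔmye tumors. Of the 32 genes, 11 had their highest CPM in Tmem173fl/fl replicate 1 and 7 in Tmem173iΔmye replicate 3.

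**Figure D5:**
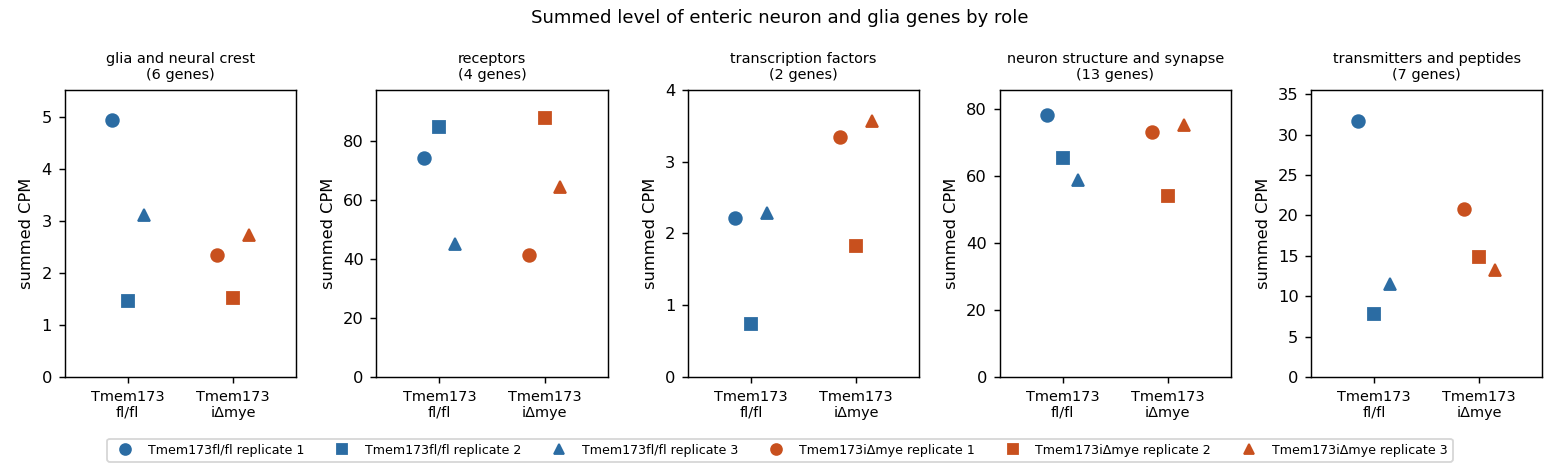
Summed CPM (y axis, linear from 0) of the genes of each role in each tumor, with 1 point per tumor. The ranges of the 3 Tmem173fl/fl and 3 Tmem173iΔmye tumors overlap in all 5 panels, and Tmem173fl/fl replicate 1 stands highest for the transmitters at 31.7 CPM.

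Other genes known from the same cells were mostly low as well, with Erbb3 as the main exception. Of 10 further glial and Schwann cell genes, 4 were tested and none passed the threshold, with a median log2 fold change of -0.23 that ran from -0.48 without Tmem173iΔmye replicate 2 to 0.09 without Tmem173fl/fl replicate 1. Mbp (log2 fold change -0.38, SE 0.18) and Erbb3 (-0.37, SE 0.19) were the tested genes of this list with the lowest p-values, both with overlapping groups, an adjusted p of 0.742 from edgeR, and levels of 6.43 and 38.2 FPKM. The part of other cells in the levels of Erbb3 and Mbp was not tested. Of 27 further neuron genes, 8 were tested, with a median log2 fold change of -0.16, and 1, Calcb, passed the threshold. The median was -0.28 without Tmem173fl/fl replicate 2, -0.10 without replicate 3 and 0.06 for the 3 genes with a mean of 1 FPKM or more.

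Calcb, a calcitonin gene-related peptide of sensory neurons, had 19, 106 and 32 counts in Tmem173fl/fl and 21, 14 and 15 counts in Tmem173iΔmye tumors. A single tumor, Tmem173fl/fl replicate 2, was far above the rest, and replicate 1 lay within the Tmem173iΔmye range. The log2 fold change was -1.68 (SE 0.67, edgeR adjusted p = 0.742) and -0.58 without that tumor, with an unadjusted p of 0.217. Calcb also lost the threshold without replicate 1, 2 or 3 of Tmem173iΔmye, at unadjusted p-values of 0.055, 0.091 and 0.088, and with Y-linked reads as a covariate (-1.21, unadjusted p = 0.161). In the fit without the filter, Adcyap1 and Hand1 also passed in the lower direction, at 0 to 24 and 0 to 8 counts. Both had 3 counts or fewer in every Tmem173iΔmye tumor, so their fold changes are not usable at this depth. Adcyap1 went from -2.85 to -1.55 (unadjusted p = 0.246) without Tmem173fl/fl replicate 3, which held 24 of its counts, and Hand1 lost the threshold when any tumor but Tmem173iΔmye replicate 3 was left out. Adcyap1 also lost it without replicate 1 or 3 of Tmem173iΔmye. The covariate ended both calls (unadjusted p = 0.082 and 0.077). Of 18 neurotrophic ligands and receptors, 11 were tested, none passed, and 5 had a log2 fold change above 0.

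Genes of neighboring tissue that carries or resembles enteric neurons were read in the same tumors. All 12 smooth muscle genes were tested, 1 (Des, desmin) passed the threshold in the lower direction, and the median log2 fold change was -0.49, running from -0.76 without Tmem173iΔmye replicate 3 to -0.28 without replicate 2. Their summed level was 141 to 191 FPKM in Tmem173fl/fl and 118 to 179 FPKM in Tmem173iΔmye tumors. Des had 1116, 837 and 1228 counts in Tmem173fl/fl and 394, 285 and 900 counts in Tmem173iΔmye tumors, a log2 fold change of -1.01 (SE 0.39, edgeR adjusted p = 0.742), and it lost the threshold without replicates 1 or 3 of Tmem173fl/fl or 1 or 2 of Tmem173iΔmye, at -0.96 to -0.71, and at -0.96 with the covariate. For interstitial cells of Cajal, Kit and Ano1 were tested and neither passed.

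Of 12 enteroendocrine genes, 7 were tested, none passed, and 5 had a log2 fold change below 0. In the fit without the filter, Pyy, the peptide YY of colonic endocrine cells, passed in the lower direction (-1.13, SE 0.44, unadjusted p = 0.019, edgeR adjusted p = 0.767). Pyy had 283, 271 and 1222 counts in Tmem173fl/fl and 204, 179 and 399 counts in Tmem173iΔmye tumors, highest in Tmem173fl/fl replicate 3. The median of the 7 tested genes was -0.76, and -0.13 without that tumor. The summed level of the 12 genes was 41.2 to 148 FPKM in Tmem173fl/fl and 31.0 to 61.5 FPKM in Tmem173iΔmye tumors. The highest value was that of Tmem173fl/fl replicate 3, of which Pyy alone gave 115 FPKM. That tumor also had the most Syt1, Snap25, Gap43 and Elavl4. No other of the 32 genes had its highest CPM there, while 11 had it in Tmem173fl/fl replicate 1, Uchl1 among them. The part of enteroendocrine cells in these counts was not tested. None of the 7 endothelial and 9 colon epithelium genes passed the threshold, and 1 of 6 fibroblast genes (Dpt, higher) and 1 of 3 follicular dendritic cell genes (Cxcl13, lower) did. Dpt fell short of a log2 fold change of 1 without Tmem173fl/fl replicate 2 or Tmem173iΔmye replicate 1 (0.96 and 0.97) and with the covariate (0.98), and Cxcl13 lost the threshold without Tmem173fl/fl replicate 3 (unadjusted p = 0.054). Of 6 tuft cell and 4 mesothelial genes, 1 each was tested and neither passed.

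Totals ranged from 15329810 to 16533732 counts per tumor. Tmem173 itself had 1705 to 2911 counts in Tmem173fl/fl and 1953 to 2291 counts in Tmem173iΔmye tumors, with overlapping groups. The genotypes are given as labelled.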

How the data were processed

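The authors deposited raw read counts and FPKM per gene. Per the labels and methods, polyA libraries (NEBNext Ultra) were processed with fastp, HISAT2 2.0.5 on GRCm38 and featureCounts 1.5.0-p3, and the groups compared with DESeq2 1.20.0. The strand setting was not given in the sources used here. The FPKM that the authors deposited equal counts divided by gene length, DESeq2 size factors and the geometric mean of the totals (largest relative difference 4.96e-07). The columns of the authors' own comparison (fold changes and p-values) were not used.

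EdgeR 4.0.16 under R 4.3.3 was fitted to the counts (quasi-likelihood test, TMM, no covariate), and p-values were adjusted by Benjamini-Hochberg over 16426 genes whose mean FPKM reached 0.5. The SE of a log2 fold change was derived from it and its F statistic. Genes under the filter were fitted again with every gene that had a count. Alternatives were other filters, RLE scaling, DESeq2 1.42.0, limma 3.58.1 on log2(FPKM + 1) and log2(FPKM + 0.1), the replicate number as a block, Y-linked reads as a covariate and leaving out each tumor. The covariate, which stands for sex, had 2 levels, over 100 Y-linked reads or not. Among the 6 tumors, 3 were over 100, so its levels could not be even between the groups of 3. Sex and genotype were thus partly confounded. Alternatives of the fit without the filter were added after seeing the data. In simulated data for this comparison (16426 genes, 200 changed), 130 were called at an adjusted p under 0.05, 127 rightly, with 30% called at a log2 fold change of 1 and 97% at 2. The simulation gave every gene the same spread beyond counting error and drew the changed genes from all levels. These shares therefore need not hold for genes with few counts or a wider spread. The 32 genes, the 12 other lists and their grouping were chosen with earlier results of these data known. All 32 are accounted for, with values per tumor for those at 0.5 FPKM or more in either group or past the threshold (counts of some others were added after their values were seen), and up to 3 genes with the lowest p of each other list. The sources used here do not say that each sample came from a separate mouse, so p-values measure only the spread between these samples, which may be technical. The floor of 3 counts covers counting error only. Coordinates and shared exons come from GENCODE M21 (GRCm38), whose coordinates matched all 32 genes, and gene starts from RefSeq. Some genes of the other lists are not reported here.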

Additional observations from a re-analysis of the deposited data

How the results depend on the processing

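None of the 9 tested neuron and glia genes passed the threshold of the study under any alternative that kept the filter of 0.5 or raised it to 1. Without a filter, 6 genes had an adjusted p under 0.05, 872 genes and 2 of the 32 passed the threshold, and 14 of the 32 had a log2 fold change above 0. DESeq2 gave 28 genes with an adjusted p under 0.05. The threshold was passed by 136 genes with limma on log2(FPKM + 1) and by 211 with Y-linked reads as a covariate, where Uchl1 turned to -0.012 and Tac1 to -0.17. Leaving out each tumor gave 0 to 1 genes with an adjusted p under 0.05, 218 to 636 past the threshold, 0 to 0 of the tested neuron and glia genes past it, 3 to 7 of them above 0, and a median of -0.048 to 0.19. The log2 fold change then ranged from -0.15 to 0.45 for Uchl1, -0.44 to 0.16 for Ret, -0.97 to 0.17 for Vip, -0.28 to 0.062 for Ednrb, -0.26 to 0.96 for Tac1 and -0.048 to 0.19 for L1cam, so these 6 had no fixed sign, while it ranged from 0.018 to 1.03 for Tubb3, 0.19 to 0.73 for Ngfr and 0.084 to 0.69 for Hand2, lowest without Tmem173iΔmye replicate 1, Tmem173fl/fl replicate 1 and Tmem173iΔmye replicate 1. The medians of the other lists moved too: without a filter that of the glial and Schwann cell genes was 0.0086, and that of the neurotrophic genes turned from -0.073 to 0.11. Of the fits without the filter, added after seeing the data, 1 of the 32 genes passed with Y-linked reads as a covariate, where Syt1 was lost (-0.99, unadjusted p = 0.086), 1 with DESeq2, where Phox2a was lost (1.49, unadjusted p = 0.079), and 0 to 2 when a tumor was left out, 0 without Tmem173iΔmye replicate 3. The causes were not tested. The deviations of same-numbered tumors correlated at 0.315, 0.00846 and 0.154, so the numbers were not taken as pairs, and replicate 2 of Tmem173fl/fl correlated best with replicate 3 of Tmem173iΔmye. With the replicate block, 377 genes and 0 of the 9 passed the threshold and 0 genes had an adjusted p under 0.05. Genes with 3 counts or fewer in a group have no usable fold change at this depth.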
